A study of Rattus norvegicus with 7 samples.

Results

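The families described here are the genes of the rat array whose symbols begin with Spata, Tekt, Odf, Dnah, Dnai, Cfap, Akap or Tssk, names given to structural and regulatory proteins of the sperm tail and of developing spermatids. They were chosen by symbol alone, from probe sets (groups of short oligonucleotides that report 1 transcript) annotated to a single gene. The rule found 93 probe sets of 66 genes among 31042 probe sets on the array, of which 20826 name a single gene. By family there were 27 Akap, 23 Spata, 22 Cfap, 7 Tekt, 7 Odf, 4 Dnah, 2 Dnai and 1 Tssk probe sets. Total RNA from testes of adult male Sprague-Dawley rats, an outbred stock, had been hybridized to 7 Affymetrix Rat230_2 arrays. 3 arrays carried untreated testis (0 h) and 4 carried testis of rats given a single intraperitoneal dose of cadmium chloride, 3 mg/kg, 2 arrays at 8 h and 2 at 20 h after the dose. The labels call the arrays of a group biological replicates. The treatment text of the labels is the same on every sample, so the titles were used to tell untreated from treated animals. No vehicle-injected group is among these samples, so injection and cadmium cannot be told apart.

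A sperm tail is built around an axoneme, a ring of doublet microtubules around a central pair, moved by dynein arms. Dnah genes encode heavy chains, the motors of those arms, and Dnai genes intermediate chains; tektins are filaments inside the doublet walls, and many Cfap proteins also line or join the doublets. Outside the axoneme run the outer dense fibres (Odf proteins) and, in the principal piece, the fibrous sheath, whose main proteins are the A-kinase anchoring proteins Akap3 and Akap4. Testis-specific serine kinases (Tssk) act in spermatids after meiosis. Most of these genes are transcribed in spermatids, which are abundant in an adult testis.

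The label is only partly a description of the members. Of the 27 Akap probe sets, 24 belong to genes other than Akap3, Akap4 and Akap14, that is, to anchoring proteins of mitochondria, nucleus, Golgi or muscle that many tissues express, and these are described separately. Spata2, Spata2L and Spata13 also carry the family name without being parts of a sperm; Spata2 is an adaptor of the linear ubiquitin machinery and Spata13 an exchange factor for small GTPases. Their probe sets were dim, with mean signals over the 7 arrays from 8.9 to 141.6.

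Ciliary genes are often regulated by RFX factors through the X-box, an inverted repeat of GTTGCC and GGNAAC, and spermatid genes by CREM through the cAMP response element, with the core TGACGT. Promoters were taken as the 250 bases before the gene start in the RefSeq promoter table for GRCr8, which held 61 of the 66 genes with 75 promoters. The table does not list Cfap107, Cfap410, Cfap418, Odf1 and Tekt5. Both strands were searched. GTTGCC stood in 16 of 75 family promoters and in 9.89% of all 33469 promoters of the same length. Both X-box half-sites at most 3 letters apart, a match that contains a GTTGCC match, stood in 3 of 75 family promoters and in 0.547% of all. TGACGT stood in 8 of 75 family promoters and in 6.95% of all. These are matches of letters and not shown to be bound. The 3 promoters with both half-sites are printed because they hold the fullest match, and those of Tekt1 and Tekt2 because both tektins are described below; capitals mark the matches, 5′ to 3′ on the gene's strand, the last base being the one before the gene start. The Cfap298 promoter lies at chr11:43677383-43677632 (minus strand), that of Cfap20dc at chr15:18661312-18661561 (plus strand), that of Cfap144 at chr10:44019282-44019531 (minus strand), that of Tekt1 at chr10:57479122-57479371 (minus strand) and that of Tekt2 at chr5:143907725-143907974 (minus strand), all on GRCr8.
Cfap298: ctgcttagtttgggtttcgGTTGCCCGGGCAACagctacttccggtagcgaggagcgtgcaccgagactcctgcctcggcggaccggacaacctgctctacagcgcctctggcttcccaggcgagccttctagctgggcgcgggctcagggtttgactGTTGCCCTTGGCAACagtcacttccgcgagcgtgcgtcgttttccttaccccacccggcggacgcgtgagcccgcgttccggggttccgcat
Cfap20dc: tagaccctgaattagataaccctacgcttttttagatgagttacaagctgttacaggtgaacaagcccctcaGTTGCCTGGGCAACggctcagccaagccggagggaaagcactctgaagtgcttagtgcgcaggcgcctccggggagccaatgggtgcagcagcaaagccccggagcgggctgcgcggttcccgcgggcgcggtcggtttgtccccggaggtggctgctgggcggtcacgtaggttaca
Cfap144: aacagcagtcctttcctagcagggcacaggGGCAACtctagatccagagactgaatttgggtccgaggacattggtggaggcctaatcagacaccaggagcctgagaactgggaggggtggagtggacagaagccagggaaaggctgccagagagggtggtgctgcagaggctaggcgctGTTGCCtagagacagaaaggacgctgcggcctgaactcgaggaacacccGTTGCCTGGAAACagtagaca
Tekt1: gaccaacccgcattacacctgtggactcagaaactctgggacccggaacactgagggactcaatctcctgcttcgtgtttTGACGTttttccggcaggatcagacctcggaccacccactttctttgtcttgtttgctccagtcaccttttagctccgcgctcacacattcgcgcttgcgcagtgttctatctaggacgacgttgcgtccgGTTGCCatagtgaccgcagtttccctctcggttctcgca
Tekt2: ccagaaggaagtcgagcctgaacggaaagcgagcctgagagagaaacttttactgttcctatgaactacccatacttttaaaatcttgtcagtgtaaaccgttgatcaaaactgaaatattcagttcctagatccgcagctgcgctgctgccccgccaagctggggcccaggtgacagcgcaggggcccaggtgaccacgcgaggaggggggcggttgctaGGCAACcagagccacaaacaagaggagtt
The Cfap298 promoter holds 2 full matches, GTTGCCCGGGCAAC and GTTGCCCTTGGCAAC, and Cfap20dc and Cfap144 hold 1 each. Tekt1 holds a TGACGT and a GTTGCC, and Tekt2 a GTTGCC on the opposite strand (GGCAAC as printed). The genes with the full match did not behave alike on the arrays: Cfap144 had 1 of its 2 probe sets higher on the last hybridization day, and Cfap298 and Cfap20dc had none that passed.

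The arrays had been hybridized on 3 days, called day 1 to day 3 here. Day 1 held untreated replicate 1 and 20 h replicate 1, day 2 held untreated replicate 2 alone, and day 3 held both 8 h arrays together with untreated replicate 3 and 20 h replicate 2. Both 8 h arrays therefore lie on day 3, while the untreated and 20 h groups span days. Untreated replicate 2 was stained under an older protocol (25 °C, 600 s, against 35 °C, 300 s on the others), and its settings name mouse as the sample type although its labels name a rat and its array is the rat one. The settings name station 1 for untreated replicate 3 and 8 h replicate 1, and station 2 for the other arrays. Untreated replicate 3 therefore differs from the other untreated arrays in station as well as in day. The deposited values are MAS 5.0 signals, linear intensities with a trimmed mean of 250.1 on every array. The median signal of the day 3 arrays was 52.9 to 57.1, and that of the 3 earlier arrays 63.2 to 72.0. The log2 ratio of 3′ to 5′ actin signal, which rises with RNA degradation or incomplete labelling, lay between 1.191 and 1.422 for day 3 arrays and between 0.733 and 0.985 for the earlier ones. How much of any day difference below goes with that ratio was not tested. An array gives no count, so the number of arrays limits the precision.

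Values were analysed as log2(signal + 15), and a probe set was tested if it was above the 40th percentile of its array on at least 2 arrays; fold changes of dim probe sets are understated on this scale. Of the 93 members, 83 probe sets of 65 genes passed that filter, and 20857 probe sets in all. The 10 that did not pass were 1 probe set each of Akap5, Akap6, Akap9, Akap10, Akap13, Odf2, Spata2 and Spata2L and 2 of Spata13, with mean signals from 2.7 to 35.8. Akap5, an anchoring protein of synapses and other membranes, was the only gene left without a tested probe set. Of the tested members, 37 had a mean signal over 2000, 23 lay between 500 and 2000, 18 between 100 and 500 and 5 under 100. Brightness belongs to a probe set as much as to its transcript, so levels of different genes were not ranked.

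**Figure D1:**
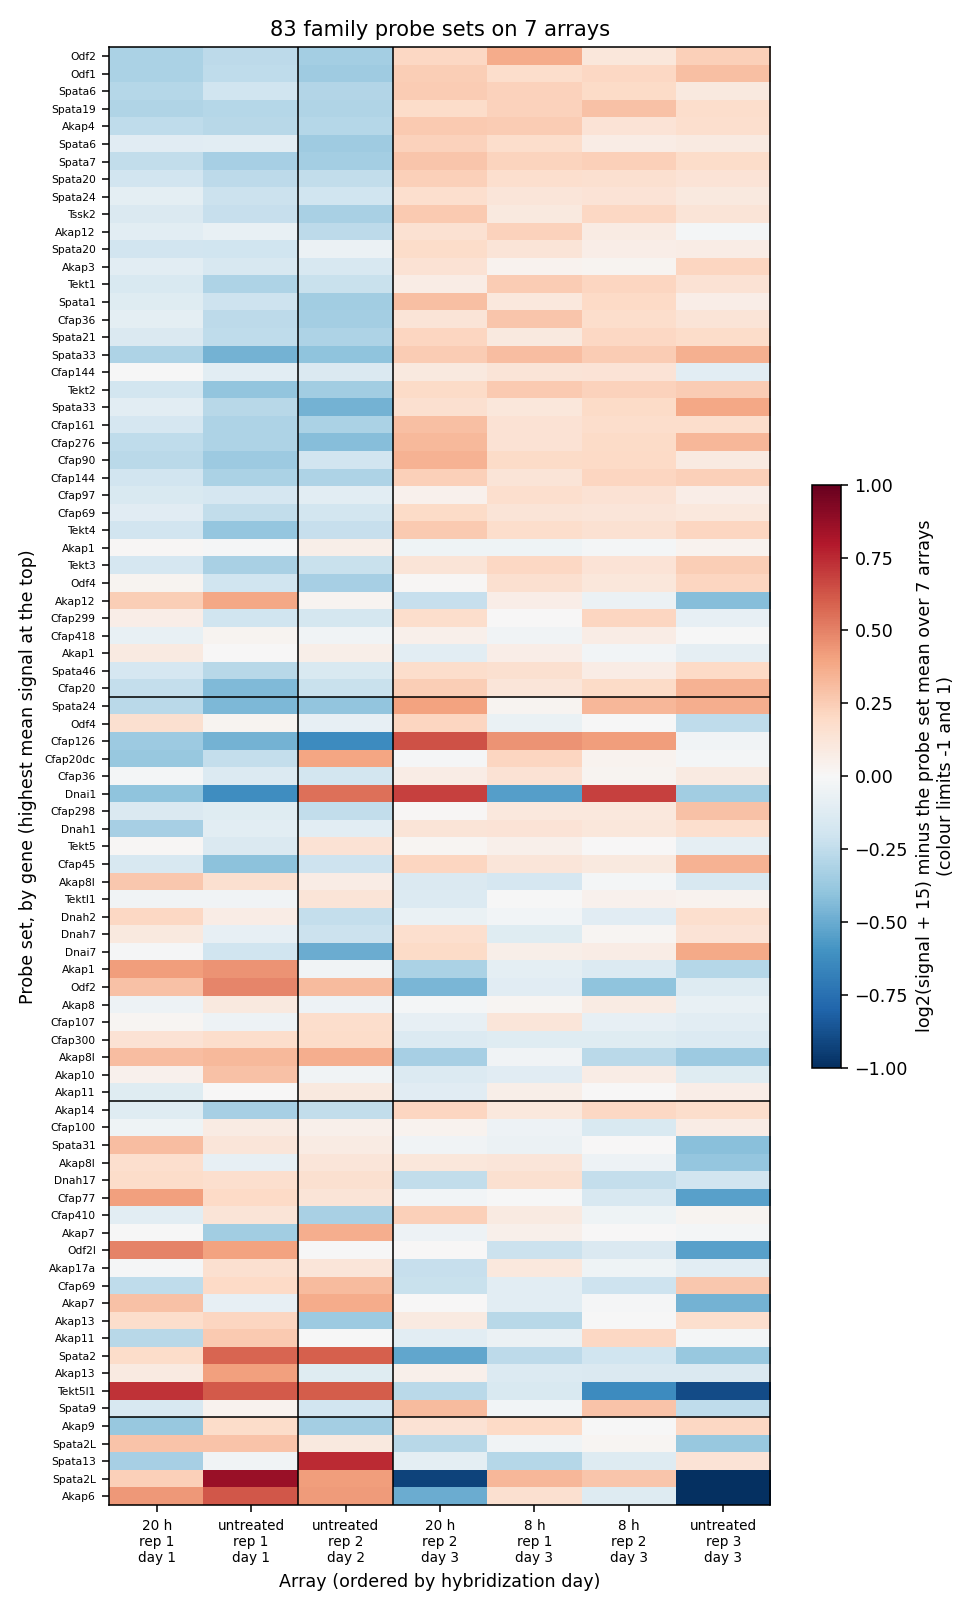
Each row is 1 of the 83 tested family probe sets, ordered by mean signal with the highest at the top, and each column is 1 of the 7 arrays, ordered by hybridization day; colour gives log2(signal + 15) minus the row's mean, from blue (low) to red (high), limited to -1 and 1. Horizontal lines separate mean signals over 2000, 500 to 2000, 100 to 500 and under 100, and vertical lines the days; most rows of the brightest class are blue on the 3 arrays of days 1 and 2 and red on the 4 of day 3, whatever the treatment.

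At 8 h the question was how sperm-tail transcripts stood early after the dose, relative to untreated testis. No family probe set passed the test over all probe sets (limma with Benjamini-Hochberg adjustment, 0 of 83, lowest adjusted p = 0.84), as was the case for 0% of all 20857. At an unadjusted p under 0.05 there were 4 family probe sets, of Cfap126, Tekt1, Cfap36 and Cfap69, where 5.22% of all had such a p. Of the 83, 60 had a positive difference, against 39% of all probe sets, and the family median was 0.15 log2 units beside -0.08 over all; after quantile normalization the medians were 0.05 and 0.01. In a bulk tissue, fewer cells of a type and less RNA per cell cannot be told apart.

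Among the members, Cfap126 (Flattop, a protein of the inner wall of ciliary microtubules) had the largest positive fitted value at 8 h. Its signal was 1279, 1145 and 1733 on the 3 untreated arrays, 2429 and 2386 on the 8 h arrays and 1377 and 2769 on the 20 h arrays. Both 8 h arrays were above every untreated array, while the 20 h arrays lay on both sides of the highest untreated one. The fitted log2 difference was 0.81 ± 0.27 (SE) at 8 h (limma, adjusted p = 0.84) and 0.51 ± 0.27 at 20 h (adjusted p = 1.0). With the hybridization day as a term it was 0.33 at 8 h and 0.39 at 20 h. Against the untreated array of the same day Cfap126 was higher by 0.48 and 0.46 on the 8 h arrays and by 0.10 and 0.67 on the 20 h arrays, a positive value on 4 of 4.

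Other members with large positive values at 8 h were bright. Spata33, which links the phosphatase calcineurin to sperm mitochondria, had a mean signal of 5870 ± 2000 (SD) on the 3 untreated arrays and of 7759 ± 187 on the 2 arrays of 8 h. Its fitted difference of 0.45 ± 0.25 (SE) became -0.01 with the day as a term. Tekt2, a tektin of the tail doublets, gave 5488 ± 1460 (SD, n = 3) and 7118 ± 114 (SD, n = 2), a difference of 0.41 ± 0.21 (SE) that became 0.06 with the day term. Spata19, a mitochondrial protein of the midpiece, gave 10580 ± 2050 (SD, n = 3) and 13800 ± 413 (SD, n = 2), a difference of 0.40 ± 0.19 (SE) that became 0.09. In all 3 genes the untreated SD was several times that of the 8 h pair, and untreated replicate 3, the day 3 array, was the high one.

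Taking the brightest probe set of each gene, the largest negative values at 8 h belonged to members with mean signals from 63.2 to 527.8. Tekt5l1 had -0.50 ± 0.47 (SE), Spata2 -0.50 ± 0.33 and Spata13 -0.49 ± 0.30, followed by Cfap300, a factor of dynein arm assembly, at -0.20 ± 0.17; dimmer probe sets of Odf2, Cfap69 and Akap8l had -0.48, -0.42 and -0.26. With the day as a term the values of Tekt5l1, Spata2, Spata13 and Cfap300 became 0.38, 0.09, -0.36 and 0.00. Those of the dimmer probe sets of Odf2, Cfap69 and Akap8l became -0.09, -0.42 and 0.20. Thus Tekt5l1, Spata2 and the probe set of Akap8l changed sign. None passed the test.

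At 20 h the cadmium arrays were set against the same untreated arrays, so its values are not independent of those at 8 h. Again 0 of 83 family probe sets passed (limma with Benjamini-Hochberg adjustment, lowest adjusted p = 0.999), as did 0% of all. At an unadjusted p under 0.05 there was 1 family probe set, beside 3.11% of all. Of the 83, 59 had a positive difference, against 41.2% of all, with a median of 0.10 beside -0.05 over all, and 0.03 beside 0.00 after quantile normalization. With 1 probe set per gene, the brightest, the largest positive values after Cfap126 were those of Odf2l, a centriole protein related to Odf2 (0.30 ± 0.28 SE), Dnai1 (0.28 ± 0.45) and Cfap299 (0.27 ± 0.13). By the same choice the largest negative values were those of Spata13 (-0.50 ± 0.30 SE), Spata2 (-0.44 ± 0.33), Cfap20dc (-0.24 ± 0.20) and Akap17a, an anchoring protein of splicing speckles (-0.17 ± 0.18). Among the dimmer probe sets of genes with several, 1 of Cfap69 had -0.50, 1 of Spata2L -0.37, 1 of Odf2 -0.31, 1 of Akap11 -0.27 and 1 of Odf4 0.29.

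Cfap299 differed more between the 2 arrays of 8 h than among the untreated arrays or between those of 20 h. Its signal was 2698, 2736 and 2922 in untreated testis, 3110 and 3588 at 8 h and 3243 and 3499 at 20 h. All 4 cadmium arrays lay above the 3 untreated ones, and the same-day differences were 0.09, 0.30, 0.26 and 0.26. The share of all probe sets that separate in this way was not counted. Of all probe sets over 2000, 91.7% had a positive value at 8 h and 84.1% at 20 h. It did not pass the test at either time (limma, adjusted p = 0.84 and 1.0).

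The 1 family probe set with an unadjusted p under 0.05 at 20 h was the dimmer of 2 for Cfap69 (mean signal 192.0, chosen after its values were seen), a gene needed for the sperm midpiece. It gave 219.3, 239.6 and 231.8 in untreated testis, 174.6 and 162.0 at 8 h and 156.5 and 160.0 at 20 h. All 4 cadmium arrays were below the 3 untreated ones, on both days that can be compared: the same-day differences were -0.38 and -0.48 at 8 h and -0.45 and -0.50 at 20 h. How many of all probe sets lie below in this way was not counted. The fitted values were -0.42 ± 0.17 (SE) and -0.50 ± 0.17 (limma, unadjusted p = 0.035 and 0.016, adjusted p = 0.84 and 1.0), and -0.42 and -0.47 with the day term. The brighter probe set of the same gene (mean signal 4350.3) did not move with it: it gave 0.23 ± 0.15 (SE) at 8 h and 0.15 ± 0.15 at 20 h. So the 2 probe sets of Cfap69 differed in sign, and which transcript each reports is not given in the sources used here.

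Between the times, 0 of 83 family probe sets passed for 20 h against 8 h (limma with Benjamini-Hochberg adjustment), as did 0% of all; 0 had an unadjusted p under 0.05, beside 1.92% of all. Of the 83, 26 had a positive difference, against 52.6% of all, and the median was -0.08 beside 0.02. An F test over the 3 groups also passed 0 family probe sets (limma, lowest adjusted p = 0.99) and 0% of all, with 2 family members at an unadjusted p under 0.05 (Cfap126 and Cfap69) beside 3.02% of all. Tekt5l1 had the largest positive value between the times, 0.62 ± 0.52 (SE), which was -0.01 with the day term. Among the brightest probe sets of each gene Spata19 had the largest negative one, -0.32 ± 0.21 (SE), which was -0.09 with the day term; a dimmer probe set of Spata2L had -0.64.

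Comparing each cadmium array with the untreated array of its own day left small family medians. The family medians were 0.03 and 0.02 for replicates 1 and 2 of 8 h, and 0.07 and 0.01 for replicates 1 and 2 of 20 h. Between 46 and 50 of the 83 probe sets were higher on the cadmium array in each of these pairs, where 49.8%, 48.5%, 42% and 47.8% of all probe sets were, with medians over all of 0.00, -0.01, -0.06 and -0.02. For the 37 members over 2000 the medians were 0.02, 0.02, 0.09 and 0.03, beside 0.02, 0.02, 0.08 and 0.04 over all probe sets of that brightness. With the day as a term in the fit the family medians were 0.03 (8 h), 0.04 (20 h) and 0.01 (between the times). Over all probe sets these medians were -0.02, -0.04 and -0.02. In that fit 49, 52 and 45 of the 83 members were positive, beside 9748, 9109 and 9712 of all 20857. An unadjusted p under 0.05 (limma) fell to 3, 8 and 2 members, beside 1275, 1197 and 656 of all. 3 of the 4 pairs use the same untreated array (replicate 3), and each rests on 1 array a side, so no test was made of them.

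**Figure D2:**
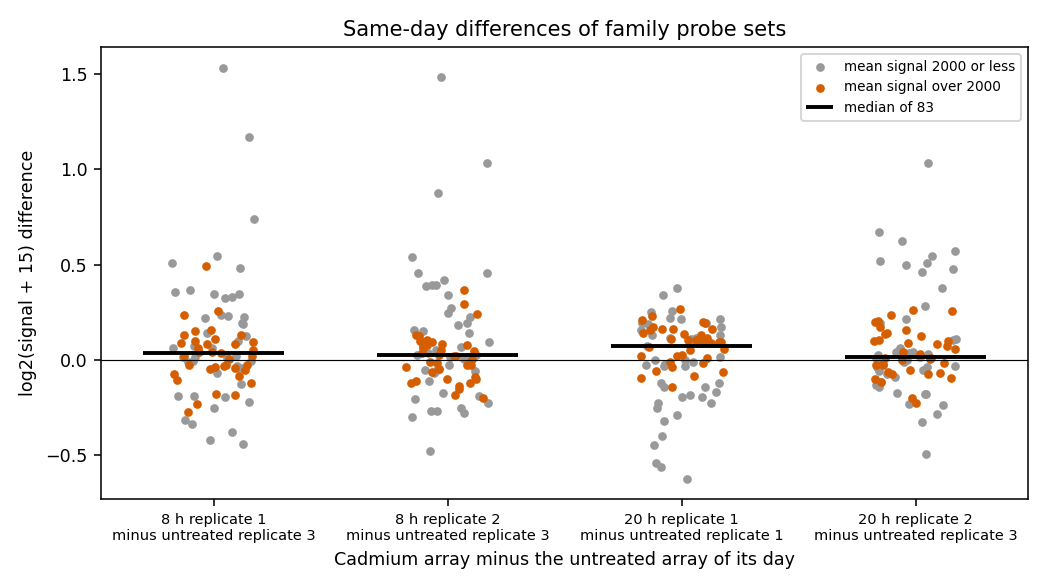
Each point is 1 of the 83 tested family probe sets, and the vertical axis is its log2(signal + 15) on a cadmium array minus that on the untreated array of the same hybridization day, for the 4 possible pairs. Orange points have a mean signal over 2000, grey ones 2000 or less, and bars mark the medians (0.03, 0.02, 0.07 and 0.01); most bright members lie close to 0 and the widest differences are of dimmer probe sets, while a bright probe set of Akap12 is at 0.49 and 0.37 in the 8 h pairs.

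The arrays were then compared by day, with the group means in the same fit. Because both 8 h arrays lie on day 3, only the untreated and 20 h arrays inform the day term. Of 83 family probe sets, 41 passed (limma with Benjamini-Hochberg adjustment over all probe sets, adjusted p under 0.05): 31 were higher on day 3 than on days 1 and 2, and 10 were lower. Over all probe sets 11.6% passed, 4.63% higher and 6.95% lower. The median day difference was 0.19 over the families and -0.09 over all probe sets. Scaling the arrays to one 75th percentile moved the latter to 0.05 and the family split to 39 higher and 7 lower. Quantile normalization moved it to 0.01 and the split to 6 and 6, beside 420 higher and 725 lower of all 20857. Counted without a fit, 38 of the 83 had all 4 day 3 arrays above the other 3, 12 had them all below and 33 overlapped, where 10.6% of all probe sets lay above and 18.7% below.

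The difference appeared within groups. Among untreated arrays, replicate 3 (day 3) exceeded the mean of replicates 1 and 2 by a family median of 0.21, and by 0.41 over the members with a signal over 2000, 34 of 37 being higher; over all probe sets the medians were -0.11 and, over 2000, 0.27. Among 20 h arrays, replicate 2 (day 3) exceeded replicate 1 (day 1) by 0.19 and 0.36, with 33 of 37 higher, beside -0.06 and 0.23 over all probe sets. Arrays of different days other than day 3 did not show it: untreated replicate 2 differed from replicate 1 by -0.02 and 0.00, and the 2 arrays of 8 h, both of day 3, by -0.01 and 0.00. Untreated replicate 2 was the only array of day 2 and had its own staining protocol. Its day, staining and animal cannot be told apart.

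The calls of the day term depended on how the spread was estimated and on 1 array. Without the intensity trend in limma's eBayes step, 0 of 83 family probe sets passed (45 had an unadjusted p under 0.05), and without untreated replicate 3, the only untreated array of day 3, 4 passed, which were probe sets of Odf1, Spata6, Spata7 and Cfap126. 28 passed without 20 h replicate 1 and 28 without 20 h replicate 2, 33 without untreated replicate 1 and 39 without untreated replicate 2. The 41 called probe sets all kept their direction in these fits.

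**Figure D3:**
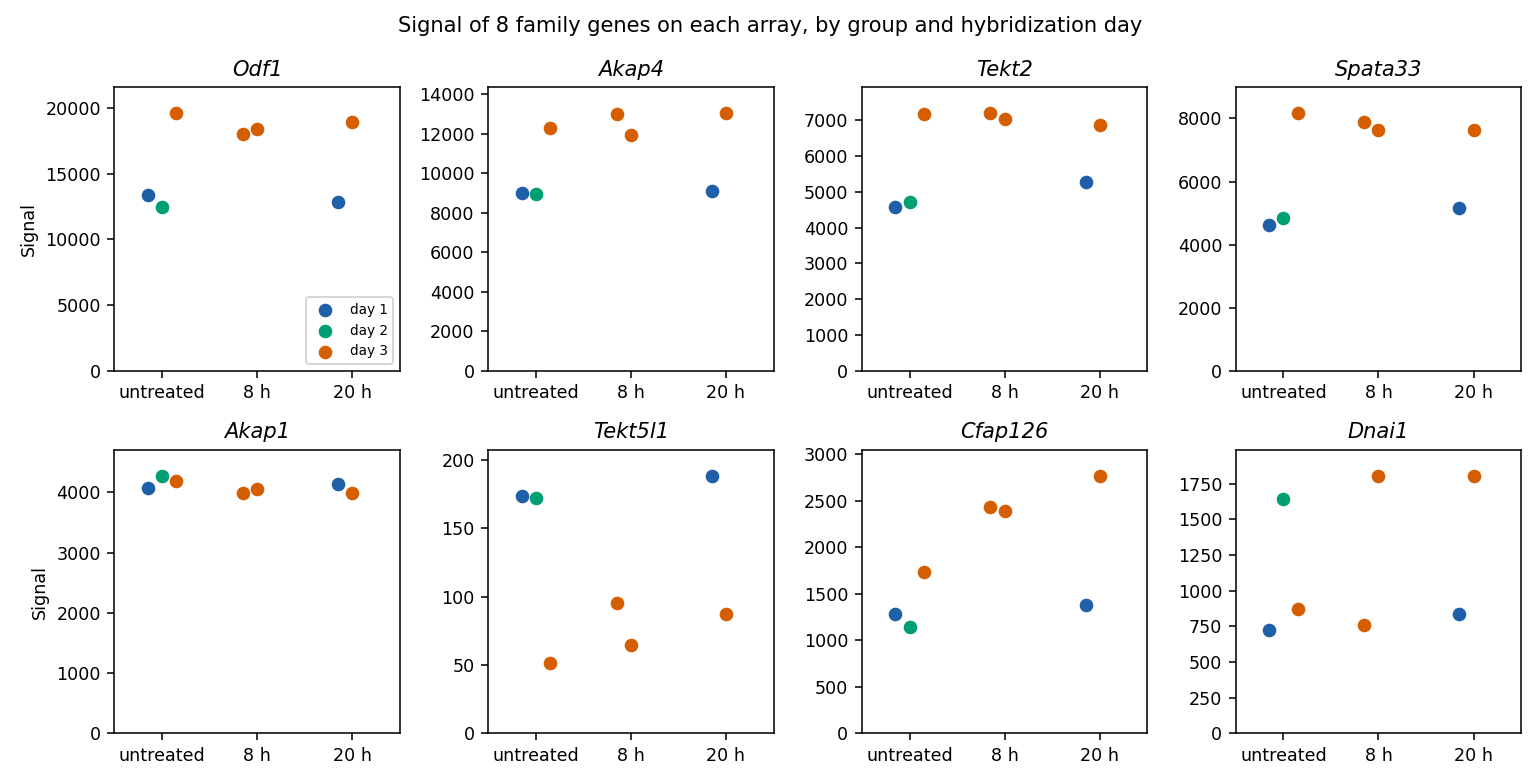
Signal (linear axis from 0, each panel with its own scale) of 8 family genes, 1 probe set each (the brightest), on each of the 7 arrays; points are single arrays, placed by group and coloured by hybridization day. Odf1, Akap4, Tekt2 and Spata33 are higher on the 4 day 3 arrays than on the earlier ones, which are untreated or 20 h arrays. Akap1 is level and Tekt5l1 is lower on day 3. Cfap126 has 1 intermediate array (untreated replicate 3, 1733), and Dnai1 takes high or low values without following day or group.

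The outer dense fibres are stiff rods along the tail. Odf1, a cysteine-rich main component of them, gave 13407, 12464 and 19624 on the 3 untreated arrays, 18053 and 18423 at 8 h, and 12825 and 18906 at 20 h. The lowest day 3 array, at 18053, was above the highest of the others, at 13407, whatever the treatment. Odf1 and the bright probe set of Odf2 described next have mean signals over 10000, where 97.4% of all probe sets rose. The fitted day difference was 0.58 ± 0.05 (SE; limma, adjusted p = 0.00059). After quantile normalization, which gives every array the same distribution, it was 0.02.

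Odf2, a coiled-coil protein of the fibres and of centrosomes, has 3 probe sets that did not report the same thing. The bright one (mean signal 16359) gave 13403, 12657 and 12876 on the arrays of days 1 and 2 and 17400 to 20729 on day 3, and rose by 0.53 ± 0.07 (SE; limma, adjusted p = 0.0027), a value that turned to -0.02 after quantile normalization. The dimmer one (mean signal 644.9) gave 771.9 to 885.7 on days 1 and 2 and 452.2 to 578.2 on day 3, and fell by 0.63 on the log2 scale (limma, adjusted p = 0.018; -0.60 after quantile normalization). Odf2 was the only gene of the families with probe sets called in both directions. The third was below the filter, at a mean of 18.3.

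Odf4 also differed between its probe sets: 0.27 ± 0.11 (SE) for the bright one and -0.11 ± 0.10 for the other, neither of which passed. Odf2l gave 301.5, 223.3 and 323.1 on days 1 and 2 and 149.4 to 224.9 on day 3; the groups overlapped, and it fell by 0.64 on the log2 scale (limma, adjusted p = 0.043).

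Of the fibrous sheath genes Akap4 and Akap3 were called higher on day 3, and Akap14 was not. Akap4 has a mean signal over 10000, where 97.4% of all probe sets rose. Akap3 has one from 5000 to 10000, where 65.2% of all rose. Of all probe sets 10.6% had every day 3 array above the others. Akap4, the most abundant protein of the sheath, gave 9010, 8969 and 12272 on the untreated arrays, 12998 and 11960 at 8 h, and 9123 and 13049 at 20 h. All 4 day 3 arrays were above the others, and the day difference was 0.48 ± 0.06 (SE; limma, adjusted p = 0.0018). Akap3, its partner in the sheath, gave 6767 to 7024 on days 1 and 2 and 7725 to 8782 on day 3, a difference of 0.32 ± 0.06 (SE; limma, adjusted p = 0.011). Akap14, a small anchoring protein of ciliary axonemes with a dimmer probe set, had 364.4 to 424.7 and 499.8 to 540.5, which did not overlap, but its difference of 0.41 ± 0.13 (SE) did not pass (limma, adjusted p = 0.064). After quantile normalization the values were 0.06 for Akap4, 0.01 for Akap3 and 0.48 for Akap14.

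Of 7 tektin probe sets, 4 rose on day 3 and 1 fell. Tekt2 gave 4567, 4722 and 7175 on the untreated arrays, 7199 and 7038 at 8 h, and 5280.0 and 6852 at 20 h; the day difference was 0.52 ± 0.07 (SE; limma, adjusted p = 0.0033). Tekt1, whose promoter is printed above, gave 5997 to 6716 on days 1 and 2 and 7825 to 8871 on day 3, a difference of 0.33 ± 0.07 (SE; adjusted p = 0.015). Tekt3 and Tekt4, filaments of the tail doublets, rose by 0.42 ± 0.08 and 0.49 ± 0.08 (SE; limma, adjusted p = 0.012 and 0.0045). All 4 had non-overlapping signals between day 3 and the other days, where 10.6% of all probe sets lay wholly above. They are the 4 tektin probe sets with a mean signal over 2000, a class in which 42.8% of all were called higher.

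Tekt5 did not share this: it gave 973.2 to 1189 on days 1 and 2 and 1008 to 1115 on day 3, a difference of -0.05 ± 0.12 (SE). Tektl1, a tektin-like gene, had the same fitted value of -0.05. Tekt5l1 went the other way, with 173.6, 172.4 and 188.5 on days 1 and 2 and 51.2, 95.6, 64.8 and 87.1 on day 3. It fell by 1.29 on the log2 scale (limma, adjusted p = 0.0070) and had -1.11 after quantile normalization (limma, adjusted p = 0.023). Its cadmium comparisons followed the same split of arrays, as given above.

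No dynein heavy or intermediate chain passed. Dnah1, a heavy chain of the inner arms, came closest, with 865.0 to 1018 on days 1 and 2 and 1188 to 1233 on day 3, a difference of 0.36 ± 0.10 (SE; limma, adjusted p = 0.0501). Dnah2 and Dnah7, also of inner arms, had 0.02 ± 0.15 and 0.19 ± 0.12 (SE), and Dnah17, an outer arm chain of sperm, -0.39 ± 0.16. Dnai7 had 0.50 ± 0.15 (SE; limma, adjusted p = 0.057).

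Dnai1, an intermediate chain of the outer arms, had widely spread values in every group. It gave 721.9, 1640.0 and 873.5 on untreated replicates 1 to 3, 759.2 and 1806 on the 8 h replicates, and 838.8 and 1803 on the 20 h replicates. The values fell at 2 levels, 721.9 to 873.5 on 4 arrays and 1640.0 to 1806 on 3, and each group held both levels. The 3 high arrays were replicate 2 of each group, from 2 hybridization days. Within day 3 its log2 range was 1.23, the widest of any tested member with a mean signal over 500. No comparison of groups or days called it, and at 20 h its value ran from -0.27 without 20 h replicate 2 to 0.82, depending on which array was left out.

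Cilia and flagella associated genes formed the second largest set of calls, with 9 of 22 probe sets higher on day 3 and 1 lower. Of the 11 with a mean signal over 2000, 7 were called higher, where 42.8% of all probe sets of that brightness were. Cfap126 had the largest difference, 0.72 ± 0.12 (SE; limma, adjusted p = 0.0060), on the signals given above. Cfap276, a protein of the microtubule lumen, gave 4037 to 4556 on days 1 and 2 and 6000.4 to 6838 on day 3, a difference of 0.65 ± 0.07 (SE; adjusted p = 0.0010). Cfap20, which seals the inner junction of the doublet, gave 1462 to 1697 and 2159 to 2536, a difference of 0.60 ± 0.10 (SE; adjusted p = 0.0063). These 3 kept their calls after quantile normalization, at 0.64, 0.39 and 0.47 (limma, adjusted p = 0.021, 0.018 and 0.027).

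Cfap45, a filament inside the doublets, rose by 0.54 ± 0.12 (SE; limma, adjusted p = 0.018) and also kept its call, at 0.51. Cfap45, Cfap161, Cfap90, Tektl1, Dnah7, Dnah17 and Spata7 were chosen after their values were seen. Cfap161 and Cfap90, both lumen proteins, rose by 0.48 ± 0.06 and 0.48 ± 0.08, and Cfap36 rose by 0.35 ± 0.07 (limma, adjusted p = 0.0024, 0.0073 and 0.015). The 2 bright probe sets of Cfap144, whose promoter holds both X-box half-sites, differed: one (mean signal 5295) rose by 0.50 ± 0.07 (SE) and the brighter (6349) had 0.06 ± 0.06. Cfap298 and Cfap20dc, with the other 2 such promoters, had 0.34 ± 0.11 and 0.10 ± 0.18 (limma, adjusted p = 0.081 and 0.74). Cfap77, a dim member, fell by 0.60 on the log2 scale (limma, adjusted p = 0.028), and Cfap300 had -0.30 ± 0.12, which did not pass.

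Of 19 Spata probe sets, 13 rose and 2 fell. The 12 with a mean signal over 2000 all rose, although 4 of them had a negative value after quantile normalization. Of all probe sets over 2000, 42.8% rose, with 65.2% from 5000 to 10000 and 97.4% over 10000. Spata6, needed to build the connecting piece between head and tail, gave 12934 to 13775 on days 1 and 2 and 16974 to 18922 on day 3, and rose by 0.43 ± 0.06 (SE; limma, adjusted p = 0.0029), which turned to -0.11 after quantile normalization. Spata19 gave 9338 to 9447 and 12950.0 to 14094, a difference of 0.47 ± 0.05 (SE; adjusted p = 0.0012) that became 0.03. Spata33 gave 4608 to 5161 and 7627 to 8172, the largest difference of the bright members at 0.69 ± 0.07 (SE; adjusted p = 0.00086), and it remained called after quantile normalization at 0.41 (adjusted p = 0.014).

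Spata20 and Spata7, the latter known from the ciliary transition zone of photoreceptors, rose by 0.41 ± 0.05 and 0.52 ± 0.05 (SE; limma, adjusted p = 0.0025 and 0.00086). Tssk2, a kinase of spermatids and the only Tssk gene with a probe set of its own here, gave 7065 to 8027 on days 1 and 2 and 9484 to 10632 on day 3, and rose by 0.41 ± 0.06 (SE; limma, adjusted p = 0.0046). Spata2 went the other way, with 155.3 to 211.2 on days 1 and 2 and 89.3 to 115.4 on day 3, and fell by 0.86 on the log2 scale (limma, adjusted p = 0.014). A dim probe set of Spata2L (mean signal 41.6) was called lower, with signals from 7.1 to 77.9, and 2 of its day 3 values were under the 15 added before the log.

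The anchoring proteins that many tissues express are described here as values, and their difference from the sperm-tail members was not tested. Of their 19 tested probe sets, 0 were called higher on day 3 and 4 lower (limma; 7 had an unadjusted p under 0.05), where 4.63% of all were called higher and 6.95% lower, with a median of -0.18. None of the bright ones was called higher either, although 1 of Akap12 had all 4 day 3 arrays above the others. Akap1, an anchor of the mitochondrial outer membrane, gave 4071, 4280 and 4143 on days 1 and 2 and 3983 to 4193 on day 3, a difference of -0.02 ± 0.07 (SE). The 4 of these probe sets with a mean signal over 2000 had a median of -0.09, and 1 was called lower: a probe set of Akap12, also called gravin (mean signal 3572), with 3578 to 4599 on days 1 and 2 and 2610 to 3678 on day 3, which overlapped, fell by 0.56 on the log2 scale (limma, adjusted p = 0.012).

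The other probe set of Akap12 (8197), the brighter, gave 6796 to 7760 on days 1 and 2 and 8034 to 9580 on day 3, without overlap. Its difference of 0.19 ± 0.08 (SE) did not pass (limma, adjusted p = 0.14), and this gene too gave opposite signs. Akap8l, a nuclear anchoring protein, fell in 1 of 3 probe sets, by 0.67 (mean signal 521.7), and Akap1 in 1 of 3, by 0.60 (mean signal 689.4; limma, adjusted p = 0.011 and 0.034). Akap6, the anchor of the nuclear envelope in muscle, gave 54.4 to 64.4 on days 1 and 2 and 10.7 to 42.8 on day 3; it fell by 1.27 on the log2 scale (limma, adjusted p = 0.034) on signals near the floor. The probe sets of Akap12, Akap8l and Akap1 given here with their mean signal were chosen after their values were seen. Over the 16 genes with more than 1 tested probe set, 7 had only positive day values, 4 only negative and 5 both signs.

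The day difference changed with brightness. In the 37 members over 2000 its median was 0.41, with 28 higher and 1 lower, and in all probe sets of that class it was 0.26, with 42.8% higher. In the 23 members from 500 to 2000 it was 0.01 (3 higher, 3 lower), beside 0.04 over all, 8.02% higher and 8.48% lower. In the 18 from 100 to 500 it was -0.21 with 4 lower, beside -0.11 and 9.77%. In the 5 under 100 it was -0.56 with 2 lower, beside -0.23 and 4.59%.

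Finer classes of the bright members, chosen after seeing the data, put the families closer to other probe sets of their brightness. From 2000 to 5000, 5 of 12 members rose, where 30.2% of all did, with medians of 0.23 and 0.21. From 5000 to 10000, 16 of 18 rose, where 65.2% of all did, with medians of 0.41 and 0.31. Over 10000, all 7 members and 97.4% of all probe sets rose, and both medians were 0.48. In each of these classes the members' share of higher calls was closer to that of all probe sets than in the class over 2000 as a whole. As a description, Spearman's rho between mean signal and the day difference was 0.68 over the 83 members and 0.27 over all 20857; the points of each share the same 7 arrays.

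**Figure D4:**
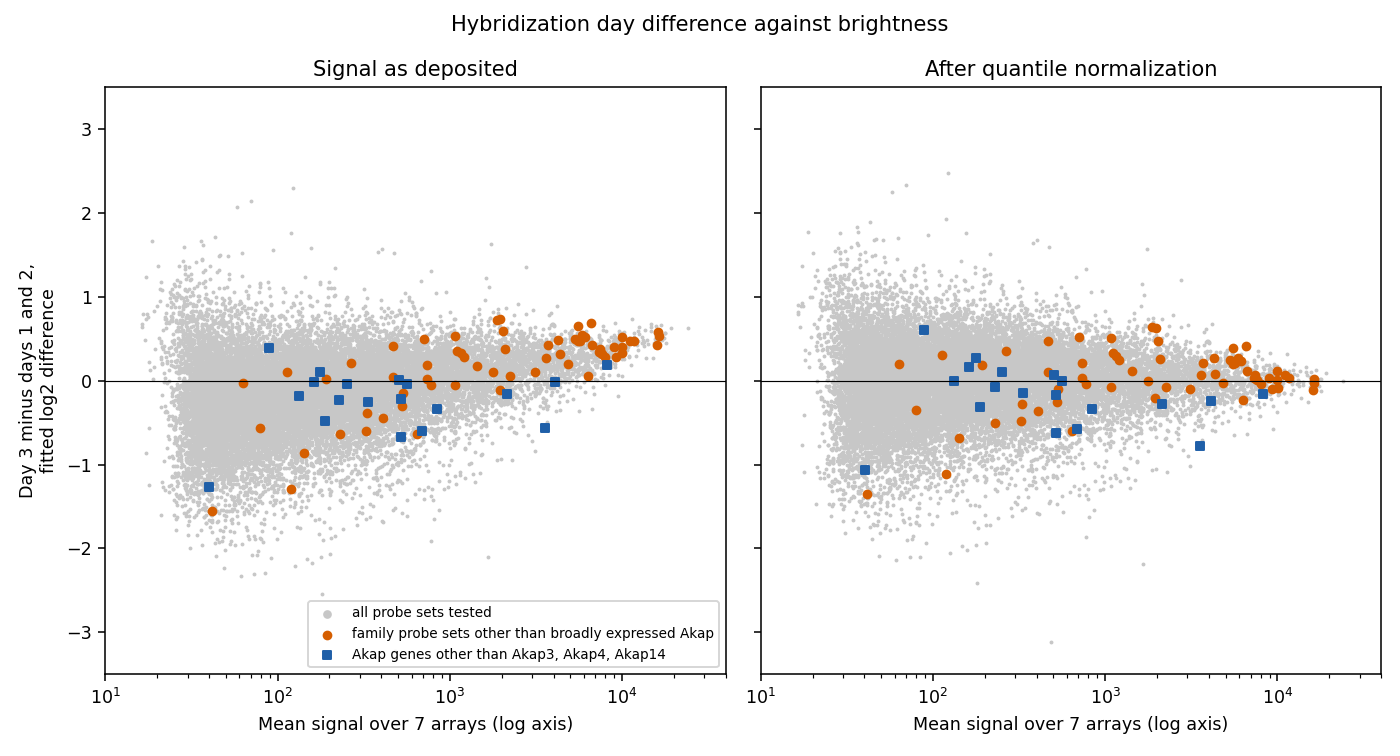
Fitted log2 difference of day 3 from days 1 and 2 against mean signal over the 7 arrays (log axis), for all 20857 tested probe sets (grey), the sperm-tail and spermatid members (orange) and the Akap genes other than Akap3, Akap4 and Akap14 (blue squares). On the signal as deposited (left) the bright members lie above 0 and the dim ones spread below it; after quantile normalization (right) the brightest lie around 0, and Odf2 and Spata6 are slightly below it.

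The cadmium comparisons were also split by brightness, and their relation to it was not the same in all. At 8 h the family medians were 0.00, -0.02, 0.06 and 0.28 from the dimmest class to the brightest. At 20 h they were -0.13, 0.12, 0.01 and 0.14, with no steady order, and between the times -0.05, 0.08, -0.03 and -0.13, lowest in the brightest class. At 8 h the members over 2000 had a median of 0.28 with 36 of 37 positive, beside 0.20 and 91.7% positive over all probe sets of that class. At 20 h their median was 0.14 with 35 of 37 positive, beside 0.10 and 84.1%. Between the times it was -0.13 with 3 of 37 positive, beside -0.09 and 22%. With the day as a term the 3 medians of these members were 0.01, 0.05 and 0.05, beside 0.03, 0.06 and 0.03 over all of that class. 2 of the 3 untreated arrays and 1 of the 2 at 20 h, but neither at 8 h, were hybridized before day 3, so treatment and day overlap most in the 8 h comparison.

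**Figure D5:**
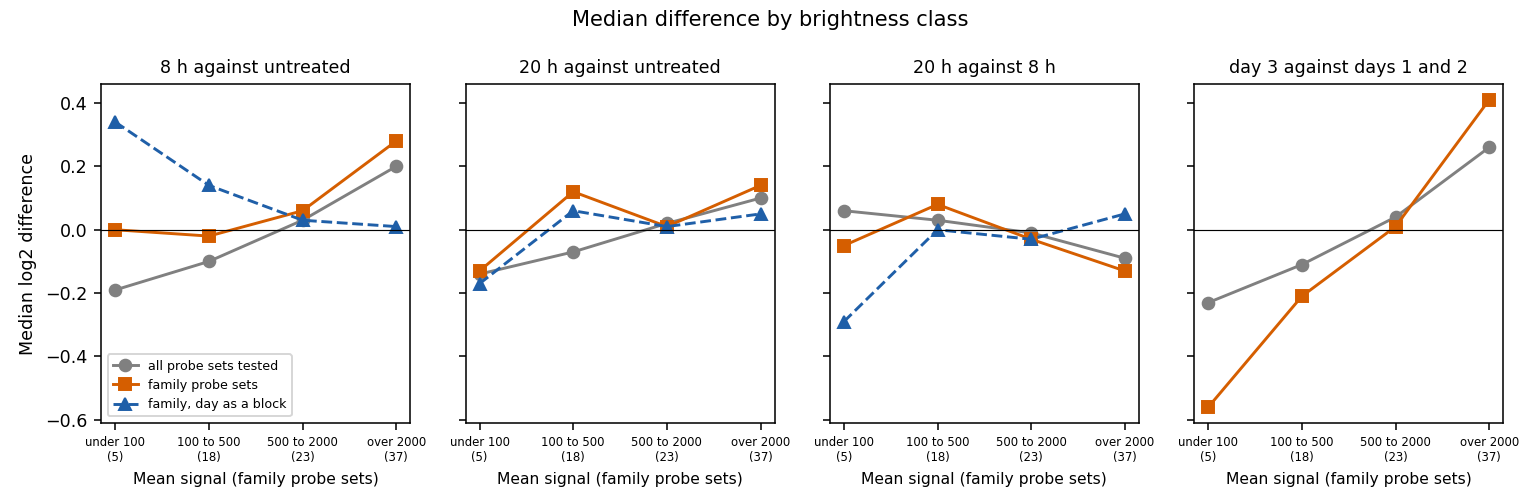
Median fitted log2 difference in 4 classes of mean signal, for all tested probe sets (grey circles), the family members (orange squares, their number under each class) and the family members with the hybridization day as a term (blue triangles, dashed). Each panel is 1 comparison; the medians of bright members are 0.28 for 8 h, 0.14 for 20 h, -0.13 for 20 h against 8 h and 0.41 for day 3, and with the day term those of the 3 cadmium comparisons are 0.01, 0.05 and 0.05.

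After quantile normalization 12 family probe sets were called by day, 6 higher and 6 lower, and 11 of them were among the 41. Over all 20857 probe sets 420 were called higher and 725 lower in that fit. The higher ones were probe sets of Cfap126, Cfap20, Cfap276, Cfap45, Spata33 and Spata24. The lower ones were probe sets of Akap12, Akap8l, Odf2, Spata2L, Tekt5l1 and Cfap144. Of the 41 called before, 36 kept their direction. The median of the members over 2000 was 0.03.

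Other genes of the same structures were counted in the same fit, with examples chosen after their values were seen. Of 51 listed axoneme genes 27 were tested, and 8 rose and 0 fell, with a median of 0.22; Dnaaf1, an assembly factor of dynein arms, rose by 0.53 (limma, adjusted p = 0.00089). Of 30 listed genes of the fibrous sheath, midpiece and sperm calcium channel 13 were tested, and 7 rose and 0 fell, with a median of 0.45; Gapdhs, the sperm glycolytic enzyme bound to the sheath, rose by 0.48 (adjusted p = 0.0011). Of 32 acrosome and sperm head genes 18 were tested, and 7 rose and 0 fell, with a median of 0.21; Crisp2, an acrosomal protein, rose by 0.57 (adjusted p = 0.0019). Over all probe sets 4.63% rose, and over those brighter than 2000, 42.8%. In that bright class 4 of 9 axoneme genes, 7 of 9 of the second list and 7 of 14 of the third rose, and the 3 examples have mean signals over 10000, where 97.4% of all rose. Under quantile normalization the calls were 2 higher, 1 higher and 1 lower, beside 420 higher and 725 lower of all 20857. In the cadmium comparisons 0 genes of these 3 lists passed (limma; at most 2 in any list had an unadjusted p under 0.05).

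Cell type markers were summed per array beside these results. The 7 spermatid markers measured of 8 summed to 112080 to 119006 on the day 3 arrays and to 77850 to 86168 on the earlier ones. Of the 7, 6 rose, none of them under quantile normalization. The 6 have mean signals over 10000, where 97.4% of all probe sets rose. Leydig cell markers (7 of 7) summed to 7126 to 11048 and 2526 to 6854, the lowest sum being that of a 20 h array. All 7 had positive day values, and 1 of them, Insl3, was called (0.67; limma, adjusted p = 0.0061). Peritubular myoid markers (5 of 5) summed to 1375 to 1550 and 1598 to 1755, with 0 of 5 called and 2 of 5 at positive values. Spermatocyte markers (6 of 9) summed to 21977 to 26296 and 18279 to 21474, a sum in which Ldhc is the brightest (mean signal 13318). Ldhc rose by 0.46 and Sycp1, a protein of the synaptonemal complex, fell by 1.18 on the log2 scale (limma, adjusted p = 0.0016 and 0.010), and the list's median was -0.09. Sums of spermatogonial, endothelial and macrophage markers overlapped between the days, and those of Sertoli cells (7 of 10) ran from 12343 to 13794 and from 10935 to 12343, most of it from Clu and Cldn11, with 0 of 7 called (limma; 4 had an unadjusted p under 0.05) and Gata4, Wt1 and Inhbb at negative values. Foxj1, the switch factor of motile cilia and 1 of the 3 measured markers of multiciliated epithelium, fell by 0.56 on the log2 scale on day 3 (limma, adjusted p = 0.032). The part of cell type differences between the testes in the families' day difference was not tested.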

How the data were processed

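The deposited values are signal intensities per probe set on a linear scale, computed by the authors in MAS 5.0, with GeneSpring 7.2 also named, per the labels' design text. The instrument's experiment files hold settings (other information, per the file headers) and gave the array type, hybridization day and staining protocol. The table has 31099 rows, 57 of them controls; 436 of the others name several genes and 9780 none. All 93 members had their Entrez ID in the RefSeq table under the same symbol. The sources used here give the probe sets no genome build.

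From the deposited intensities log2(signal + 15) was computed, 15 being the 20th percentile of all values. A mean for each of the 3 groups was fitted with limma 3.58.1 (R 4.3.3), moderated by eBayes with a trend on intensity; residual and prior degrees of freedom were 4 and 5.48, and 3 and 7.06 in the fit with a day 3 term. Benjamini-Hochberg adjustment ran over all 20857 probe sets. The trimmed mean left out 2% at each end. The p-values measure spread between arrays.

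The members, gene lists and comparisons were chosen with earlier results of these data known. Genes were named by rule: a fixed set (the Akap, Odf, Tekt, Tssk, Dnah, Dnai and Spata genes best known from sperm), the 2 brightest of each family, and the 4 largest differences in each direction per comparison, passing ones first, 1 probe set per gene (the brightest); others are said to be chosen after their values were seen. Alternatives tried were pseudocounts of 1 and 50, no filter or one at the 60th percentile, quantile normalization, scaling to one 75th percentile, no intensity trend, the day or the replicate number as a block, and leaving out each array. The script was tested on simulated data.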

Additional observations from a re-analysis of the deposited data

How the results depend on the processing

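In the families, 0 probe sets were called in the 3 cadmium comparisons under any of the settings tried. Over all probe sets, leaving out 1 array gave 0 to 1 calls at 8 h, 0 to 8 at 20 h, 0 to 1 between the times and 0 to 1 in the F test, the nonzero counts coming without 8 h replicate 2 or 20 h replicate 2. For the day 3 term, the calls over all probe sets were 1145 under quantile normalization, 75 without the intensity trend and 153 to 1973 without 1 array; in the families they were 12, 0 and 4 to 39. Where an arm was left with 1 array, that array is assumed to vary like the others. The causes were not tested. Without 1 array the fit of the day 3 term has 2 residual degrees of freedom.

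The replicate numbers were not taken to pair arrays: replicate 1 minus replicate 2 correlated between groups at 0.00, 0.09 and 0.14. With the replicate block the day 3 term was called in 2 probe sets over all and 0 in the families (23 at an unadjusted p under 0.05), with 1 residual degree of freedom.

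Under quantile normalization the day values of Odf2 and Spata6 turned to -0.02 and -0.11. With the day as a block, values of genes named by rule also turned. At 8 h these were Spata33 (-0.01), Tekt5l1 (0.38), Spata2 (0.09) and Cfap300 (0.00). Between the times they were Spata33 (0.04), Tekt5l1 (-0.01), Cfap77 (-0.02) and Cfap126 (0.06). Without 1 array Dnai1 ran from -0.27 to 0.82 at 20 h and Cfap126 from -0.80 to 0.20 between the times. Of 382 alternative values for 24 gene results in the cadmium comparisons, 10 reversed and 0 passed the threshold.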
